A study of Mus musculus with 4 samples.

Results

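The interferon-stimulated genes examined here are 34 genes known as interferon-induced effectors, sensors, transcription factors and parts of class I antigen presentation. They were chosen by gene name, with earlier results of these data known, and each of the 34 was found once among the 56493 genes of the deposited table. RNA came from dorsal epidermis of 2 conditional double-knockout samples (cKO, with loss of Stim1 and Stim2 through K14-Cre, a recombinase under the control of keratin 14 sequences) and 2 control samples with floxed alleles of both genes (Stim1/2fl/fl, labelled F/F). STIM1 and STIM2 sense the calcium content of the endoplasmic reticulum and, when it falls, trigger calcium entry from outside the cell. The strain, age and sex of the mice, and whether the controls carried Cre, are not given in the sources used here. Keratin 14 drives Cre in basal keratinocytes and their descendants, so the resident immune cells and pigment cells of the epidermis are not direct targets. Nothing in the labels says that the 2 samples of a group came from separate mice, so p-values measure only the spread between these samples.

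Interferons are secreted by infected or stressed cells and by immune cells, and bind receptors on nearby cells. Type I and type III interferons act through the kinases JAK1 and TYK2 on a complex that includes STAT2 and IRF9 and binds a DNA element with paired GAAA runs (the interferon-stimulated response element, ISRE). Interferon gamma acts through JAK1 and JAK2, and its target genes carry the gamma-activated site (GAS). In skin, keratinocytes hold a low basal activity of this system and raise it in infection and inflammation.

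RefSeq promoter windows of GRCm38.p6, from 250 bases before to 50 bases after the start, were matched for 25 of the 34 members. The ISRE core GAAANNGAAA, read on either strand, was in a window of 13 of the 25 members and of 3.99% of the 27025 genes with a window (3.44% of all 32851 windows). The GAS letters TTCNNNGAA, the same on both strands, were in a window of 6 of the 25 members and of 9.55% of all genes with a window. No other motif was searched, and matches of the same motif may overlap. Of the 18 matched members with under 10 counts in all 4 libraries together, 12 held the ISRE core, against 1 of the 7 with more (Ifih1). A match describes the letters and is not a binding site. The stretches below show 5 such promoters of members that had 0 or 1 counts in every library, so that the element can be seen beside near-empty rows. Each is 5′ to 3′ on the gene's strand, and capitals mark the ISRE core on either strand.

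Isg15 (GRCm38.p6, chr4:156200845-156200926, minus strand, first match 78 bases before the start): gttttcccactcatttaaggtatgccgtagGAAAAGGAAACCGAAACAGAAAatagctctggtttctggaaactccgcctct

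Ifit1 (GRCm38.p6, chr19:34640755-34640843, plus strand, first match 104 bases before the start): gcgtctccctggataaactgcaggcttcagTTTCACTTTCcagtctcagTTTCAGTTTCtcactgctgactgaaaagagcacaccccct

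Ifit3 (GRCm38.p6, chr19:34583343-34583446, plus strand, first match 156 bases before the start): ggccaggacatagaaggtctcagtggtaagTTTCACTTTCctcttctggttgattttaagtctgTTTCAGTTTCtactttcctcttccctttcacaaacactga

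Oas3 (GRCm38.p6, chr5:120777695-120777764, minus strand, first match 75 bases before the start): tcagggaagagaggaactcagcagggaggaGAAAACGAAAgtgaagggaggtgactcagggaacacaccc

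Cxcl10 (GRCm38.p6, chr5:92349063-92349132, minus strand, first match 213 bases before the start): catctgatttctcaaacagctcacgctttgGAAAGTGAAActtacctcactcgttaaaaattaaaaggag

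The 104 bases printed for Ifit3 have a counterpart in Ifit3b that differs at 0 positions. The transcripts of the pair are 97.8% identical over 1700 bases, so their reads could be divided between them.

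The libraries were shallow, with totals of 118858 to 322426 counts. A count of 0 allows up to 3 counts (a one-sided 95% limit), or from 9.58 CPM (control replicate 2) to 33.7 CPM (cKO replicate 2), with 12.1 and 16.01 CPM for the other replicate of cKO and of control (CPM, the counts-per-million scale, here after TMM scaling; unscaled CPM use the library total alone). Such limits and all intervals of single counts cover counting error only. Stim1 was counted 23 and 6 times in cKO, 24 and 62 times in control, and Stim2 had 0 and 1 against 3 and 18. In CPM both were lower in each cKO library than in each control library, but neither passed the test (edgeR quasi-likelihood test, adjusted p = 0.671 for Stim1; Stim2 was under the count filter). Keratinocyte markers were present in all 4 libraries, with 8 of 8 genes counted. Their summed levels were 13396 to 24471 CPM in cKO, above the 5149 to 10941 CPM of control. Most of this gap came from Flg, at 8968 and 5383 CPM in cKO against 107 and 313 CPM in control. Krt14, Krt1 and Dsg3 were also higher in both cKO libraries, while Krt5, Krt10, Trp63 and Lor overlapped between the groups. Skeletal muscle markers (8 of 8 counted) summed to 44.5 and 135 CPM in cKO, below the 1425 and 974 CPM of control, and 4 of 5 endothelial markers were at 0. Fibroblast markers (5 of 6 counted, Pdgfra at 0) summed to 36.4 and 607 CPM in cKO against 160.1 and 102 CPM in control, with cKO replicate 2, which also has the highest member sum, far above the rest. The part of these shifts in the levels below was not tested.

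Most members were at or near 0 in both genotypes in these shallow libraries. Of the 34 members, 31 had a count in some library, 15 of those had 1 to 3 counts over all 4 libraries, and 3 (Ifit3b, Oas3 and Cxcl10) had none. A count in some library was thus found for 91.2% of the members, against 30.4% of all 56493 genes listed. At least 10 counts in all were reached by 9 members, the lowest of which had 18, while the highest of the other 25 had 9. These 9 are 26.5% of the members, against 15.3% of all genes listed. The members are all protein-coding, while the genes listed also include non-coding genes and pseudogenes. Both shares are thus set against an unlike set of genes and do not measure how well the members were detected. Tap1, Psmb8, Psmb9, Ifi27 and Ifi27l2a together held 69.5% of the 498 counts of the members. These are raw 3′-end counts, and they are not compared between members as levels.

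**Figure D1:**
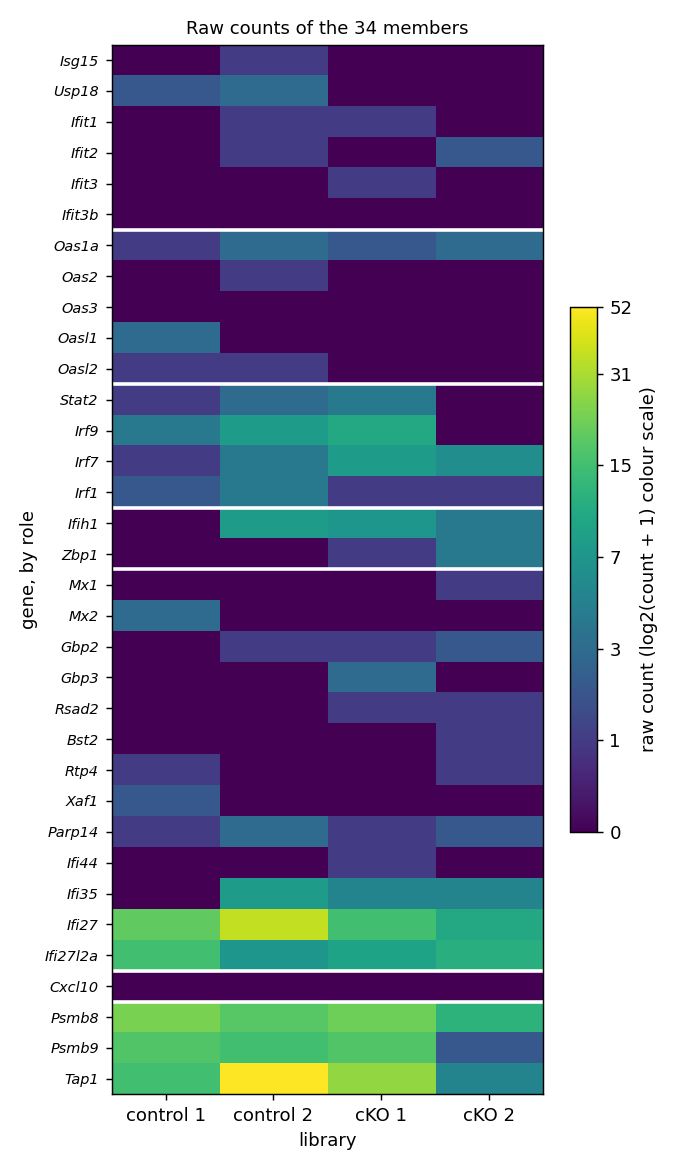
Raw counts of the 34 members (rows, grouped by role with white lines between roles) in the 4 libraries (columns), on a log2(count + 1) colour scale. The class I genes at the bottom and Ifi27 and Ifi27l2a are counted in every library, and the highest value is 52 counts of Tap1 in control replicate 2.

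The summed counts of the members overlapped between cKO and control. They came to 136 counts in cKO replicate 1 and 73 in cKO replicate 2, against 111 in control replicate 1 and 178 in control replicate 2. This was 482 unscaled CPM (95% Wilson interval 407 to 570) in cKO replicate 1 and 614 unscaled CPM (489 to 772) in cKO replicate 2. The control libraries had 554 unscaled CPM (460 to 667) and 552 unscaled CPM (477 to 639). The control values lie between those of the cKO libraries, and the intervals of all 4 libraries overlap. The ratio of group means (cKO over control) was 1.18 with TMM scaling, 0.991 in unscaled CPM and 0.967 with the totals of the tested genes without TMM. It was 0.952 with TMM scaling without cKO replicate 2, so its direction turns with the scaling and with that library. Divided after the values were seen, the 5 most counted members made up 315 and 337 unscaled CPM in cKO against 444 and 397 in control. The other 29 made up 167 (125 to 221) and 278 (198 to 390) unscaled CPM in cKO against 110 (72.5 to 166) and 155 (118 to 204) in control. On this scale the first set was lower and the second higher in both cKO libraries. Within the second set, the 25 members with under 10 counts in all overlapped between the groups. They were at 60.2 and 151 unscaled CPM in cKO against 84.9 and 68.2 in control. In the second set the counting intervals of cKO replicate 2 and control replicate 1 did not overlap, while those of every other cKO and control pair did. These intervals hold no spread between replicates. With TMM scaling the first set was at 359.9 and 449.5 CPM in cKO against 475 and 409 CPM in control, so its groups overlapped. The second set was at 190.04 and 371 CPM in cKO against 117 and 159.7 CPM in control. No test of the sum was made, since 2 libraries against 2 cannot give an exact two-sided permutation p under 0.333 and the genes were chosen with earlier results of these data known.

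**Figure D2:**
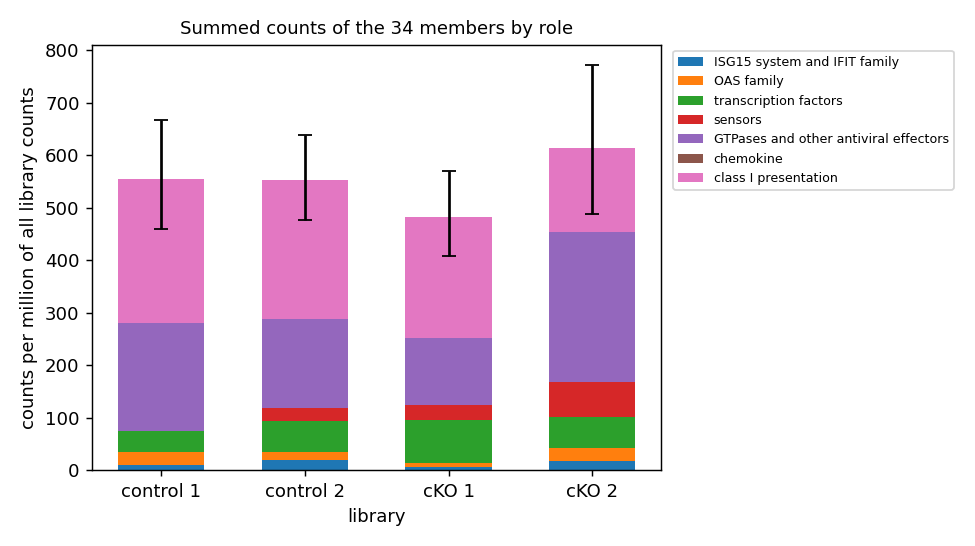
Summed counts of the 34 members in each library, in unscaled CPM, stacked by role; black bars are 95% Wilson intervals of the whole sum. The 4 sums lie between 482 and 614 unscaled CPM with overlapping intervals, and class I presentation with the group of GTPases and other effectors makes up most of each bar.

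No member passed the test over all genes. Of the 34 members 5 passed the count filter, and 0 of the 5 were called at an adjusted p under 0.05 (edgeR quasi-likelihood test with Benjamini-Hochberg adjustment). DESeq2 and limma-voom also called 0, and 0 had an unadjusted p under 0.05 in edgeR. Over all 4243 genes tested 0.848% were called in either direction (0.66% higher and 0.189% lower in cKO) and 8.39% had an unadjusted p under 0.05, so with 5 genes a count of 0 is near the background. The 5 tested members had a median log2 fold change of -0.41 (2 above 0 and 3 below), against 0.007 over all genes tested. Their groups overlapped in all 5, whereas 38.5% of all genes tested had groups that did not overlap (18.9% with cKO above and 19.6% with cKO below control). Each interval included 0, and the intervals differ between the genes, as given with each below.

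Among the genes of interferon signalling, the transcription factors were counted in low numbers. STAT2 and IRF9 are parts of the ISRE-binding complex, IRF7 amplifies type I interferon production, and IRF1 acts early after interferon gamma. Irf7 (ENSMUSG00000025498, chromosome 7, 140842619 to 140846394, minus strand, GRCm39) was counted 8 and 6 times in cKO, 1 and 4 times in control. Its normalised level was 32.3 and 67.4 CPM in cKO against 5.34 and 12.8 CPM in control. Both cKO values were above both control values, with means of 49.9 ± 24.8 CPM (SD, n = 2) and 9.05 ± 5.26 CPM (SD, n = 2). Irf7 was under the count filter, and in the fit that keeps every gene with at least 10 counts in all its log2 fold change was 2.17 with a standard error of 1.08 (95% interval -0.043 to 4.38, edgeR adjusted p = 0.708, unadjusted p = 0.0543). The difference therefore did not pass the test. It rests on 5 control counts, and its exons share 45 bases with Phrf1 on the opposite strand.

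Irf9 (ENSMUSG00000002325, chromosome 14, 55841028 to 55847487, plus strand) was counted 10 and 0 times in cKO, 4 and 8 times in control. The cKO libraries lay at 40.4 and 0 CPM, on either side of the control values of 21.3 and 25.5 CPM, and the 0 allows up to 33.7 CPM (one-sided 95% limit; the two-sided exact Poisson bound is 41.5 CPM). Its log2 fold change with the same filter was 0.074 ± 1.03 (standard error; edgeR adjusted p = 0.998), and -0.067 without control replicate 1. Stat2 was counted 4 and 0 times in cKO, 1 and 3 times in control. Irf1 had 1 count in each cKO library against 2 and 4 in control, too few to size a change.

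The sensors were detected unevenly. IFIH1 (MDA5) is a cytoplasmic receptor for long double-stranded RNA, and ZBP1 binds Z-form nucleic acid and can trigger cell death. Ifih1 (ENSMUSG00000026896, chromosome 2, 62426142 to 62476599, minus strand) was counted 7 and 4 times in cKO, 0 and 8 times in control. Its level was 28.3 and 44.95 CPM in cKO against 0 and 25.5 CPM in control, so the groups did not overlap on this scale. They overlapped with library totals alone, where cKO replicate 1 and control replicate 2 both had 24.8 unscaled CPM. The log2 fold change was 1.21 ± 1.14 (standard error; edgeR adjusted p = 0.964 in the fit with at least 10 counts). Irf7 and Ifih1 were thus 2 of 9 members with at least 10 counts whose groups did not overlap, where 36.7% of the 8621 genes with that many counts did not. The CPM of the members use TMM over the tested genes, and the 36.7% uses TMM of the fit with at least 10 counts. In that fit 0 of the 9 were called and 0 had an unadjusted p under 0.05, against 0.684% and 7.33% of all its genes. Zbp1 was counted 1 and 4 times in cKO and 0 times in control, which is at the limit of what these libraries can show.

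The ISG15 system and the IFIT family were almost uncounted. ISG15 is a ubiquitin-like protein that is joined to other proteins, USP18 removes it and dampens receptor signalling, and IFIT proteins bind viral RNA. Together the 6 genes had 2 counts in each cKO library, 2 in control replicate 1 and 6 in control replicate 2. Isg15 had 1 count in control replicate 2 and 0 elsewhere. A stretch of 482 bases of its transcript is 95.2% identical to AC151275.1, and the use of multi-mapped reads is not given in the sources used here. Usp18 was counted 0 times in cKO, 2 and 3 times in control. No member of this family passed 3 counts in any library, so a fold cannot be given for any of them.

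The OAS family, whose enzymes make oligoadenylates that activate RNase L, was likewise near 0. Its 5 genes were counted 2 and 3 times in cKO, 5 and 5 times in control. Oas1a, counted 2 and 3 times in cKO, 1 and 3 times in control, was the member with the most. Its transcript is 97.6% identical to that of Oas1g over 1861 bases, and Oas1g has the same count as Oas1a in each of the 4 libraries, so the same reads may stand behind both. Oas2, Oasl1 and Oasl2 had counts in control libraries only, of 1 to 3 in all, and Oas3 had none.

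Among the GTPases and other antiviral effectors, 10 of 13 genes had under 10 counts in all. The Mx GTPases trap viral nucleocapsids, and guanylate-binding proteins attack vacuoles that hold microbes. Mx1 had 1 count in all, Mx2 3, Gbp2 4 and Gbp3 3. The transcripts of Mx1 and Mx2 are 95.25% identical over 843 bases, so their reads could be divided between them. Rsad2 (viperin), which makes an antiviral nucleotide, had 1 count in each cKO library and 0 in control. Bst2 (tetherin) had 1 count, Rtp4 2, Xaf1 2, Ifi44 1 and Parp14 7 over the 4 libraries. None of these 10 could be sized.

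The other 3 genes of this group had at least 10 counts in all. Ifi27 (ENSMUSG00000064215, chromosome 12, 103400470 to 103406498, plus strand), which encodes a small membrane protein induced by type I interferon, was counted 15 and 10 times in cKO, 19 and 36 times in control. Its level was 60.7 and 112 CPM in cKO and 101 and 115 CPM in control, and cKO replicate 2 lay between the control libraries. The log2 fold change was -0.41 ± 0.58 (standard error; 95% interval -1.66 to 0.83, edgeR adjusted p = 0.962), and 0.0039 without cKO replicate 1. With library totals alone both cKO values of Ifi27 were below both control values, at 53.2 and 84.1 against 94.9 and 112 unscaled CPM.

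Ifi27l2a (ENSMUSG00000079017, chromosome 12, 103408426 to 103409939, minus strand), the neighbour of Ifi27 and a relative of it, was counted 9 and 11 times in cKO, 15 and 7 times in control. Its level was 36.4 and 124 CPM in cKO and 80.04 and 22.4 CPM in control, so the replicates of each group differed more than the group means. The log2 fold change was 0.56 ± 0.84 (standard error; 95% interval -1.25 to 2.37, edgeR adjusted p = 0.965), and it was -0.41 without cKO replicate 2 and -0.13 without control replicate 2. Ifi35 (ENSMUSG00000010358, chromosome 11, 101339233 to 101349524, plus strand) was counted 5 times in each cKO library, 0 and 8 times in control. It was at 20.2 and 56.2 CPM in cKO against 0 and 25.5 CPM in control, with overlapping groups (log2 fold change 1.19 ± 1.18, standard error, edgeR adjusted p = 0.97 with at least 10 counts).

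**Figure D3:**
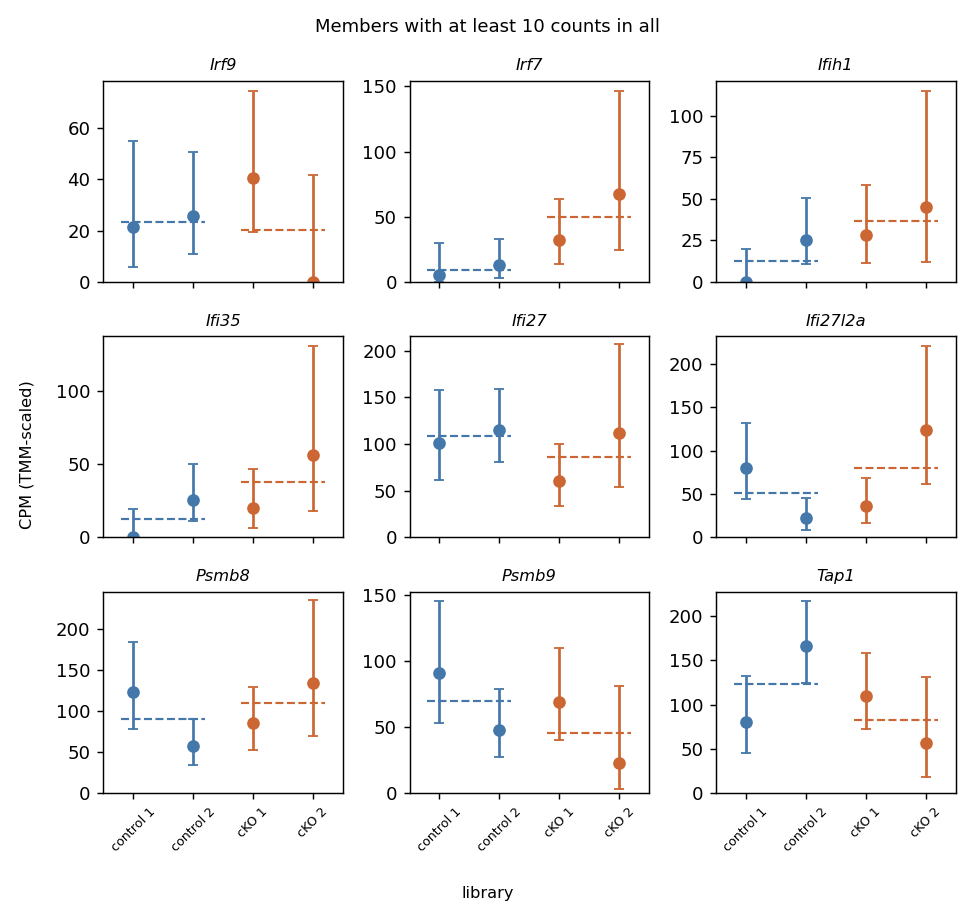
TMM-scaled CPM of the 9 members with at least 10 counts in all, in 2 control (blue) and 2 cKO (orange) libraries. Points are libraries with exact 95% Poisson intervals of their counts and dashed lines are group means; the groups overlap in 7 of the 9 panels, and in Irf7 and Ifih1 both cKO points lie above both control points.

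The 3 class I presentation genes each had at least 10 counts in all, Tap1 the most of any member, and their groups overlapped in all 3 genes. PSMB8 and PSMB9 are catalytic subunits of the immunoproteasome, which cuts proteins into peptides, and TAP1 is part of the transporter that carries the peptides into the endoplasmic reticulum. All 3 lie side by side on chromosome 17. Psmb8 (ENSMUSG00000024338, 34416695 to 34420428, plus strand) was counted 21 and 12 times in cKO, 23 and 18 times in control. At 84.9 and 135 CPM in cKO against 123 and 57.5 CPM in control the order of the replicates was mixed, with a log2 fold change of 0.26 ± 0.60 (standard error; 95% interval -1.03 to 1.56, edgeR adjusted p = 0.988).

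Psmb9 (ENSMUSG00000096727, 34400961 to 34406738, minus strand) was counted 17 and 2 times in cKO, 17 and 15 times in control. At 68.7 and 22.5 CPM in cKO and 90.7 and 47.9 CPM in control the groups overlapped, and cKO replicate 2 was the lowest library (log2 fold change -0.41 ± 0.73, standard error, 95% interval -1.98 to 1.16, edgeR adjusted p = 0.978). Tap1 (ENSMUSG00000037321, 34406527 to 34416199, plus strand) was counted 27 and 5 times in cKO, 15 and 52 times in control. Control replicate 2 was the highest at 166 CPM and cKO replicate 2 the lowest at 56.2 CPM, with 109 CPM in cKO replicate 1 and 80.04 CPM in control replicate 1 between them. The log2 fold change of Tap1 was -0.51 ± 0.58 (standard error; 95% interval -1.75 to 0.73, edgeR adjusted p = 0.936), and it became 0.13 without control replicate 2. Psmb9 became 0.034 without cKO replicate 2 and 0.064 without control replicate 1. Psmb8 became -0.037 without cKO replicate 2 and -0.20 without control replicate 2.

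Tap1 and Psmb9 are transcribed away from each other. Their RefSeq promoter windows share 275 of 300 bases, and their exons share 212 bases on opposite strands in the deposited table. Neither window holds the ISRE core or the GAS letters as spelled above, and the Psmb8 window holds the GAS letters. Whether the counting used strand is not given in the sources used here, so reads from the shared bases cannot be assigned to either gene. The shared exon bases lie at the starts of both genes, whereas the libraries were made from transcript ends. How many reads fell on these bases was not tested.

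Class I genes are also expressed by the immune cells of the epidermis. The T cell markers (9 of 10 counted, Trac at 0) had a summed level of 303 to 307 CPM in cKO and 438 to 443 CPM in control. The close cKO sums hide unlike genes, since Thy1 was at 170 and 11.2 CPM in cKO against 53.4 and 28.7 CPM in control. Ptprc, which is not specific to T cells among immune cells, was counted 2 and 4 times in cKO, 26 and 18 times in control. Few counts stood behind Cd3e (1 and 0 in cKO, 4 and 5 in control), Cd247 (0 and 0, 2 and 1) and Trdc (0 and 0, 2 and 9). In CPM Ptprc, Cd3e, Cd247 and Trdc were lower in both cKO libraries, and the other counted markers overlapped between the groups. The Langerhans cell markers (7 of 8 counted, Cd1d1 at 0) ranged from 1197 to 3214 CPM in cKO and from 2245 to 3959 CPM in control. Most of this sum came from Cd74 and the class II genes H2-Aa, H2-Ab1 and H2-Eb1, each with overlapping groups. The defining marker Cd207 was counted 1 and 0 times in cKO, 8 and 10 times in control. Macrophage and monocyte markers (8 of 9 counted, Cd163 at 0) were at 36.4 and 371 CPM in cKO and 95.8 to 117 CPM in control. Plasmacytoid dendritic cell markers (4 of 5 counted, the defining marker Siglech at 0) were at 133 and 33.7 CPM in cKO against 90.7 and 35.1 CPM in control. Of this sum Tcf4 alone held 121 and 11.2 CPM in cKO and 85.4 and 25.5 CPM in control. Bst2 of this list is also a member, and Irf8 is also on a pathway list. The part of these immune cells in the levels of the members was not tested. In bulk RNA, fewer cells of a type and less RNA per cell cannot be told apart.

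No transcript of an interferon gene was counted. All 21 ligand genes on the list, among them Ifnb1, Ifng, Ifnk (the interferon of keratinocytes), Ifne and the type III genes Ifnl2 and Ifnl3, had 0 counts in every library, which allows up to 9.58 to 33.7 CPM for each. Of 9 receptors and kinases 8 had a count, and Ifnar2 was at 0. Ifngr1, a chain of the interferon gamma receptor, was counted 12 and 8 times in cKO, 10 and 13 times in control (log2 fold change 0.47, edgeR adjusted p = 0.965). Ifngr2, its partner chain, was at 72.8 and 89.9 CPM in cKO against 26.7 and 44.7 CPM in control, without overlap but not past the test (log2 fold change 1.11 ± 0.70, standard error, edgeR adjusted p = 0.758). Jak1 was at 182 and 157 CPM in cKO and 261 and 246 CPM in control, lower in both cKO libraries but not past the test (log2 fold change -0.56 ± 0.44, standard error, edgeR adjusted p = 0.854).

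Over the 116 other genes of the pathway, 72 had a count, 15 passed the filter, and 0 were called higher and 0 lower (edgeR; 2 had an unadjusted p under 0.05, and DESeq2 and limma-voom called 0). Over all 4243 genes tested 0.848% were called and 8.39% had an unadjusted p under 0.05 (edgeR). The median log2 fold change of the 15 was 0.22, with 9 above 0 and 6 below. Groups did not overlap in 7 of the 15 (4 with cKO above and 3 with cKO below control), against 38.5% of all genes tested. Of the 15 genes that lead to interferon production 12 had a count and none passed the filter. Irf3, the factor that starts interferon transcription, was counted 14 and 3 times in cKO, 6 and 12 times in control. Sting1, the adaptor of cytoplasmic DNA sensing, had 0 and 7 against 1 and 3, and the adaptor Traf3 had 3 and 3 against 2 and 0. Of 50 other induced effectors 18 were at 0 in every library and 2 passed the filter.

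Trim25, a ubiquitin ligase that acts on the RNA sensor RIG-I, had the largest fold among these 15 genes. It was counted 26 and 10 times in cKO, 2 and 6 times in control. Its level was 105 and 112 CPM in cKO and 10.7 and 19.2 CPM in control, so the groups were far apart. The log2 fold change was 2.75 ± 0.74 (standard error; edgeR adjusted p = 0.153, unadjusted p = 0.0026), which did not pass the threshold. Samhd1, which degrades nucleotides, was at 36.4 and 56.2 CPM in cKO and 80.04 and 16 CPM in control. Tor3a had 3 and 6 counts against 8 and 12.

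Nlrc5, the transactivator of class I genes, was counted 0 and 2 times in cKO, 8 and 40 times in control. It was under the count filter. Where every gene with at least 10 counts was kept, its log2 fold change was -3.62 (edgeR adjusted p = 0.187, unadjusted p = 0.00253). With a library left out, 1 group is a lone library that is assumed to vary like the other group. Such fits gave an adjusted p of 0.0495 without control replicate 1 (log2 fold change -4.11), 0.449 without cKO replicate 1 (-1.99) and 0.00216 without cKO replicate 2. In the last the lone cKO library has 0 counts, so no fold is given. Ptpn6 and Ptpn2 are phosphatases that limit JAK and STAT signalling. Ptpn6 was at 16.2 and 44.95 CPM in cKO against 64.03 and 47.9 CPM in control, lower in both cKO libraries but not past the test (edgeR adjusted p = 0.884). Ptpn2 was at 40.4 and 56.2 CPM in cKO against 53.4 and 28.7 CPM in control, with overlapping groups.

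None of the other class I presentation genes passed the test. B2m, the light chain of class I molecules, was at 388 and 371 CPM in cKO and 299 and 383 CPM in control (log2 fold change 0.15 ± 0.42, standard error, edgeR adjusted p = 0.992). The heavy chain gene H2-K1 was at 271 and 247 CPM in cKO against 304 and 345 CPM in control, lower in both cKO libraries but not past the test (log2 fold change -0.32 ± 0.42, standard error, edgeR adjusted p = 0.955). Psme2, a subunit of the proteasome activator PA28, was at 384 and 686 CPM in cKO against 352 and 249 CPM in control, apart but not past the test (log2 fold change 0.81 ± 0.46, standard error, edgeR adjusted p = 0.716). Of the 12 genes on this list 8 were tested, 0 were called and 1 (Calr) had an unadjusted p under 0.05 in edgeR. Of all genes tested 0.848% were called and 8.39% had such an unadjusted p.

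**Figure D4:**
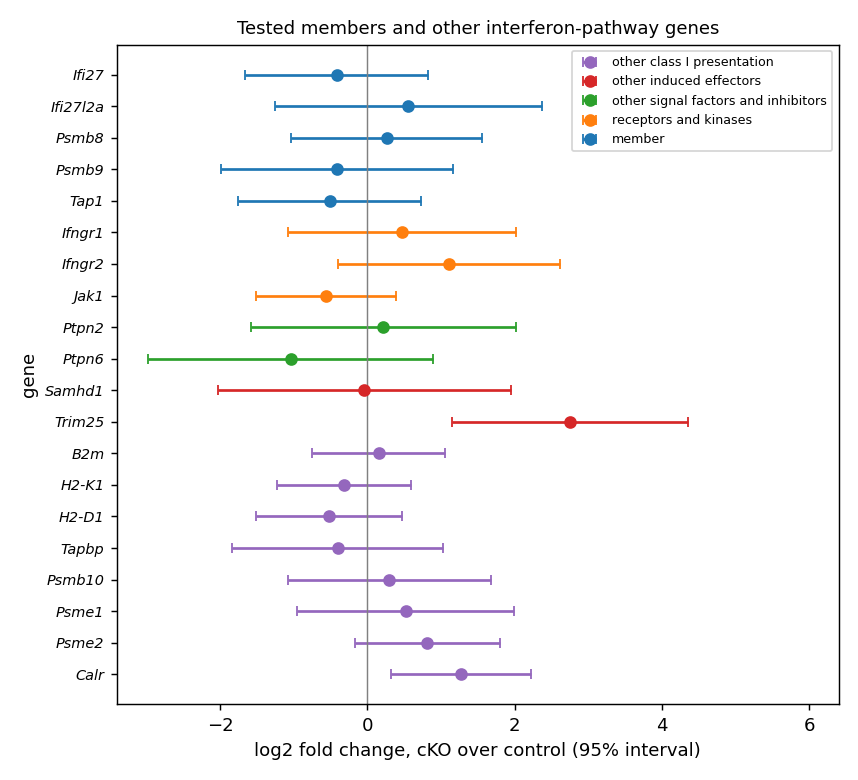
Log2 fold change (cKO over control) with its 95% interval for the 5 tested members (blue) and the 15 tested genes of the other pathway lists (colours by list). All 5 intervals of the members include 0; Trim25, at 2.75, has the largest value and was not past the adjusted threshold.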

How the data were processed

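Dorsal epidermis was separated with sodium thiocyanate, and 3′-end libraries were made with the QIAseq UPX kit, per the labels' protocols. The authors deposited whole-number counts per gene for 4 libraries. The submitters' processing notes name Trim Galore 0.6.7, Trimmomatic 0.39, cutadapt 3.7, STAR 2.7.10a, featureCounts 2.0.1 and GRCm39. Use of molecular identifiers, strand and multi-mapped reads is not given in the sources used here. All 4 libraries were used, 2 per genotype, grouped by title.

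Counts were tested in edgeR 4.0.16 (R 4.3.3), with genotype as the only term, filterByExpr (minimum count 10, minimum total 15; 4243 genes with 87.6% of counts), TMM scaling, glmQLFit, glmQLFTest and Benjamini-Hochberg adjustment over all tested genes. CPM are on the effective library sizes (tested genes, after TMM), and unscaled CPM on the library totals. Standard errors are the absolute log2 fold change over the root of F. The fit was tested on simulated data. Alternatives used DESeq2 1.42.0, limma 3.58.1 (voom), other scalings and filters, a replicate block and each library left out. Copies were searched with blastn 2.17.0 among GENCODE M21 transcripts, at 95% identity or more over at least 150 bases. Such a stretch in another gene was found for 14 of the 34 members.

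The members and lists were chosen with earlier results of these data known. Named are members with at least 10 counts in all, the 3 pathway genes per list with the highest mean CPM, and Stim1 and Stim2; 1 further gene of the rule is not reported here. Other members are given by counts.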

Additional observations from a re-analysis of the deposited data

How the results depend on the processing

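No member was called in either direction in any of the 14 alternatives run (13 set beforehand), and in the 11 that give a ratio of summed levels it ranged from 0.952 (without cKO replicate 2) to 1.37 (without cKO replicate 1). Fits with a library left out assume that the lone library of a group varies like the other group. Scaling by the totals of tested genes without TMM ("library totals" here) moved the median log2 fold change of all genes from 0.007 to -0.24. Log2 fold changes of 6 members changed direction when a library was left out, with ranges of -0.067 to 0.77 for Irf9, -0.83 to 0.0039 for Ifi27, -0.41 to 1.69 for Ifi27l2a, -0.20 to 0.88 for Psmb8, -1.60 to 0.064 for Psmb9 and -1.20 to 0.13 for Tap1. Psmb9 was also at 0.013 with limma-voom. Of the other genes, B2m ranged from -0.011 to 0.36 (library totals -0.10), Ptpn2 from -0.17 to 0.70 (library totals -0.026), Tor3a from -1.68 to 0.69 and Samhd1 from -0.83 to 1.45 (limma-voom 0.64). Samhd1 was at 0.13 with the replicate block and 0.30 with crossed numbers. The cause of these changes was not tested. The count of lower pathway genes ranged from 0 to 1 with a library left out (Nlrc5), and 1 pathway gene was higher with the crossed block (Trim25, adjusted p = 0.0433, against 0.391 with the replicate block).

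Over all genes, 28 were higher and 8 lower. The counts were 49 and 26 without a filter, 12 and 3 with limma-voom, and with a library left out they ranged from 34 to 59 and from 8 to 34. Lower genes numbered 15 with library totals, 15 where the mean CPM had to reach 10, and 19 where the total count had to. The replicate numbers do not pair the samples by any label. Same-numbered libraries deviated from their group means with a correlation of -0.2 across genes, and the replicate block gave 16 higher and 1 lower. The crossed pairing, chosen after seeing the data, gave 90 and 57. The sum of Ifit3 and Ifit3b, planned as an alternative, had 1 count in all and could not be fitted.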

Other observations

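The induced proteasome subunits were compared with their constitutive counterparts, a choice made after the values were seen. Psmb8, Psmb9 and Psmb10 replace Psmb5, Psmb6 and Psmb7 in the immunoproteasome. The induced subunits were counted 55 and 22 times in cKO, 55 and 48 times in control, and the constitutive ones 219 and 109 times in cKO, 181 and 258 times in control. Induced subunits thus held 20.1% and 16.8% of these counts in the cKO libraries (95% Wilson intervals of 15.8% to 25.2% and 11.4% to 24.1%). In the control libraries they held 23.3% and 15.7% (18.4% to 29.1% and 12.04% to 20.2%). The cKO values lie between the control values. The shares are of 3′-end counts and are not shares of protein.

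Calr, a chaperone of class I loading and of the endoplasmic reticulum at large, was singled out after its values were seen. It was at 319 and 405 CPM in cKO and 160.1 and 137 CPM in control, without overlap (log2 fold change 1.27 ± 0.44, standard error, edgeR adjusted p = 0.359, unadjusted p = 0.0125). Oas1c, an OAS relative that is no member, was counted 1 time in each cKO library, 4 and 21 times in control, and was also chosen after its values were seen.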
